A study of Mus musculus with 12 samples.

Results

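The cytosolic ribosomal protein genes, 88 of the 23183 gene symbols in the RNA sequencing of mouse cortex and hippocampus, are described here. The rule that chose them uses symbols and no measured value: symbols that start with Rpl or Rps and a number, with Rplp0, Rplp1, Rplp2 and Rpsa, and without the Rps6k kinases and the rows named as pseudogenes. Of these genes, 53 are named for the large (60S) subunit and 34 for the small (40S) subunit. The remaining gene, Rps19bp1, encodes a nucleolar binding partner of RPS19 and no ribosomal protein, and it is kept in the counts but in neither subunit. Paralogs and retrogenes made up 10 of the 88. Male C57BL/6 mice were sham-irradiated (Con) or given 1 dose of radiation to the whole brain (IR), and tissue was taken 3 months later. Each of the 4 groups had 3 libraries, and the files give each library 1 FPKM value per gene (fragments per kilobase, relative to library size). No label says that the 3 libraries of a group came from separate mice, so the p values measure the spread between these samples, which may be technical. The irradiated field held the whole brain, and both tissues are mixtures of cell types, so fewer cells of a type and less RNA per cell cannot be told apart.

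A ribosome joins a large subunit, which forms peptide bonds, to a small subunit, which reads the messenger RNA. Each subunit is built in the nucleolus from ribosomal RNA and 1 copy of nearly every ribosomal protein, so cells make these proteins in balanced amounts. Many of their messages begin with a run of pyrimidines, the 5′ terminal oligopyrimidine (TOP) tract, through which mTOR signalling sets how strongly they are translated. RPL5 and RPL11 also bind MDM2 when ribosome assembly is disturbed, and Rps27l is a known p53-induced paralog of Rps27.

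Several members have a near-identical copy among the rows, so their coding sequences come first. They were read from GENCODE M21 on GRCm38, the assembly also known as mm10, and positions are counted from 1 at the first base of the start codon. Rps27 (chromosome 3, 90212522 to 90213651, minus strand) and the intronless Rps27rt (chromosome 9, 114982366 to 114982739, minus strand) differed at 0 of 252 coding bases. Rps27l (chromosome 9, 66946086 to 66949516, plus strand) differed from Rps27 at 60 of the 252, which are in capitals in both sequences.
Rps27: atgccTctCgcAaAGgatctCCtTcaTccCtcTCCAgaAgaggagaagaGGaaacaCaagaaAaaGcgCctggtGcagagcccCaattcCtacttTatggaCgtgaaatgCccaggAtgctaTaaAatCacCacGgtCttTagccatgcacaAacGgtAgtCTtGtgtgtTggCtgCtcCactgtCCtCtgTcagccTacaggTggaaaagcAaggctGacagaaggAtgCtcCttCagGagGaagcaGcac
Rps27l: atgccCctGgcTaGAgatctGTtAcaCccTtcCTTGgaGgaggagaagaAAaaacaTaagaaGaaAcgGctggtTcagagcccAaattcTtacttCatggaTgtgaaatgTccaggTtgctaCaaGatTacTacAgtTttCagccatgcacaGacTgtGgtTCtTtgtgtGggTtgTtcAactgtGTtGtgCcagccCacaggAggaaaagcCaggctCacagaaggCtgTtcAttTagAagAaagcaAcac
Rpl26 (chromosome 11, 68901583 to 68906989) differed from the processed pseudogene Gm15772 (chromosome 5, 3236431 to 3236868) at 2 of 435 coding bases, C177T and T288C. Bases 162 to 303 are shown, with the differing bases in capitals.
Rpl26: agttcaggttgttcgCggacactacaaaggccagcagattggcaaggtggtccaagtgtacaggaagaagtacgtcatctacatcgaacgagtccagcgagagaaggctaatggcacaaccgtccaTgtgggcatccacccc
Gm15772: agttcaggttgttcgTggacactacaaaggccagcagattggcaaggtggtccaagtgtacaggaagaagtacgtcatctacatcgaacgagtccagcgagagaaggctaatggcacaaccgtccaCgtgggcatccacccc
Rpl34 (chromosome 3, 130726831 to 130730398) differed from Rpl34-ps1 (chromosome 6, 71124610 to 71124963) at 2 of 351 coding bases, T132C and C318G. Bases 117 to 333 are shown in the same way.
Rpl34: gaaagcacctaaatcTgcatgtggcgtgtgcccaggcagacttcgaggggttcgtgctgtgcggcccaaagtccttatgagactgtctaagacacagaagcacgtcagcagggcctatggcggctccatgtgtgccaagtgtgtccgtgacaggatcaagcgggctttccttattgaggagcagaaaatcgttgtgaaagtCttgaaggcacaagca
Rpl34-ps1: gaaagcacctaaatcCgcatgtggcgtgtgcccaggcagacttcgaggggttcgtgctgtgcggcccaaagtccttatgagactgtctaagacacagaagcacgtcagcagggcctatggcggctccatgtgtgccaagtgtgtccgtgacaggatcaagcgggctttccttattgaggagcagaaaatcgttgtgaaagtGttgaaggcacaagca
Rpl30 (chromosome 15, 34440505 to 34443640) differed from Gm12191 (chromosome 11, 49678710 to 49679057) at 1 of 345 coding bases, G96A.

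In these 4 pairs the parent gene was listed far below its copy in all 12 libraries. Rps27 was listed at 5.28 ± 0.485 FPKM in cortex Con and Rps27rt at 774.7 ± 51.7 FPKM (SD, n = 3). Rpl26 was at 20.2 ± 7.48 FPKM and Gm15772 at 489 ± 24.6 FPKM in the same libraries. The copy held 85.8 to 99.6% of the summed level of a pair over all 12 libraries. Short reads from so similar a pair can be assigned to either row, so the levels of Rps27, Rps27rt, Rpl26, Rpl30 and Rpl34 are uncertain singly. Over the 85 members whose coding sequence was searched, 20 had a row of at least 90% identity over at least 80% of their coding sequence, and in 4 of the 20 the member was below its copy.

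**Figure D1:**
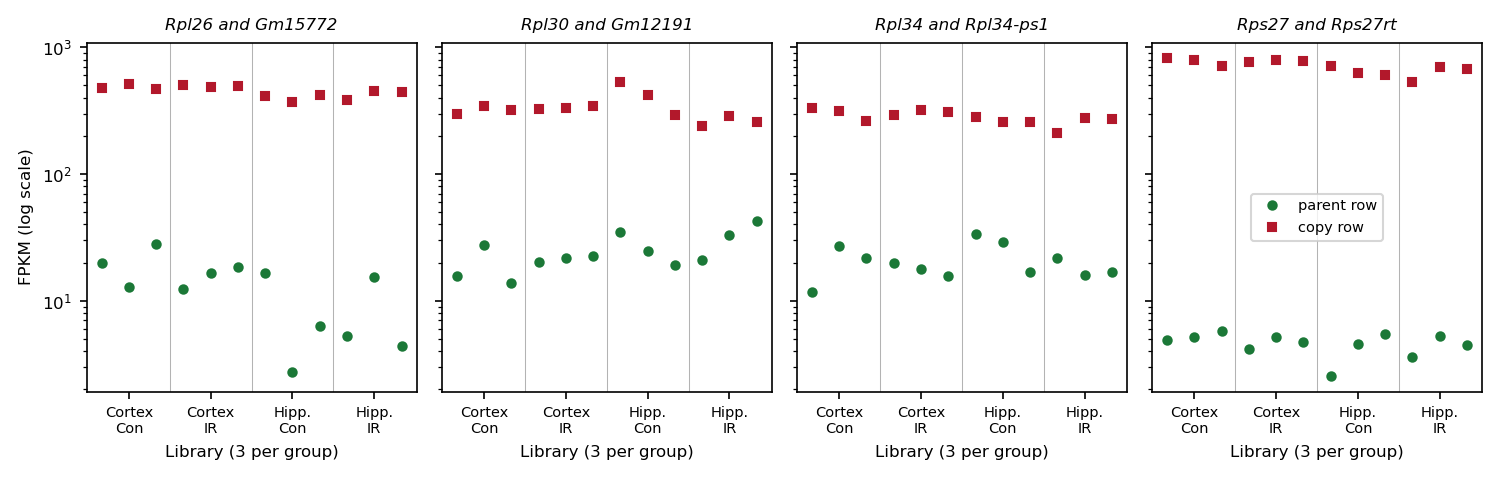
FPKM on a log scale (vertical axis) of 4 parent genes (circles) and their near-identical copies (squares) in each of the 12 libraries, ordered by group along the horizontal axis (Hipp., hippocampus). The copy lies above the parent in every library of every pair.

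The start sites of the members were read from RefSeq (GRCm38.p6), in which 66 of the 88 had an entry. An unbroken run of at least 5 C or T bases on the coding strand that covered the start site was found in 21 of the 66 genes (31.8%), and in 11.8% of all genes of the table. Windows of 30 bases around the start are shown for 2 genes with such a run, in capitals, and 2 without.
Rps6 (chr4:86857353-86857382, minus strand): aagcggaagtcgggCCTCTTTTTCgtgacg
Rps27 (chr3:90213634-90213663, minus strand): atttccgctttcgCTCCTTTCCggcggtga
Rpl11 (chr4:136053379-136053408, minus strand): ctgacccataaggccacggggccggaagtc
Rplp0 (chr5:115559452-115559481, plus strand): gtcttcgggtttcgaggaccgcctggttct
A match describes letters only, and an annotated start can lie some bases from the start in use.

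The 87 subunit genes had a smaller summed level in the hippocampus, and it differed little between Con and IR. The sum was 24126, 27034 and 23083 FPKM in cortex Con and 24513, 24069 and 24759 FPKM in cortex IR. It was 23941, 20226 and 19782 FPKM in hippocampus Con and 18148, 21708 and 21145 FPKM in hippocampus IR. All 3 IR libraries of the hippocampus lay below all 3 of the cortex, whereas in Con hippocampus library 1 lay above cortex library 3. The hippocampus mean was 0.861 of the cortex mean in Con and 0.832 in IR. IR over Con was 0.988 for the cortex and 0.954 for the hippocampus, and without single libraries it ranged from 0.956 to 1.04 and from 0.921 to 1.02. As a share of a library's total FPKM, the genes held 6.41 to 7.20% in the cortex and 4.95 to 6.09% in the hippocampus, without overlap. These sums carry no test, and an exact permutation test of 3 against 3 could not go below p = 0.1.

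The ratio of the listed subunit sums stayed in a narrow range. The ratio of summed FPKM, large over small subunit, was 1.25 ± 0.0169 in cortex Con and 1.24 ± 0.0105 in cortex IR (SD, n = 3). It was 1.24 ± 0.0236 in hippocampus Con and 1.25 ± 0.01 in hippocampus IR (SD, n = 3). The 12 libraries lay between 1.21 and 1.27, and the 4 groups overlapped. Hippocampus Con library 1 was the lowest and cortex Con library 2 the highest. The level of the ratio depends on the rows summed. The copy Rps27rt is in the small subunit sum, at 774.7 FPKM in cortex Con. Gm15772, Gm12191 and Rpl34-ps1, at 489, 319 and 302 FPKM there, are in neither sum. Without the paralogs and retrogenes the group means were 1.33, 1.31, 1.31 and 1.33 in the same order. The ratio with all copies added was not computed.

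**Figure D2:**
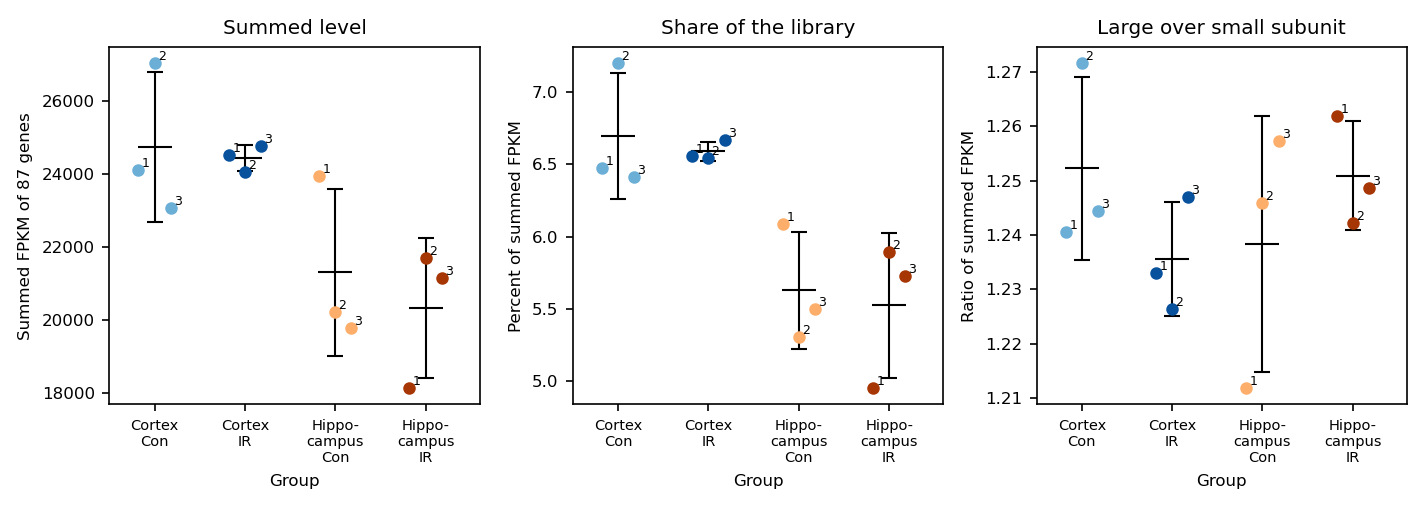
Summed FPKM of the 87 subunit genes, their share of the library's total FPKM in percent, and the ratio of large to small subunit sums in each group, with the 3 libraries as numbered points and bars for mean ± SD; no axis starts at 0. The share separates the regions (6.41 to 7.20% against 4.95 to 6.09%), and the ratio stays between 1.21 and 1.27.

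Levels per length spanned a wide range among the members. Rplp1 of the stalk, which recruits elongation factors, had the highest mean over the 12 libraries at 857 FPKM, followed by Rpl38 (829.6), Rps21 (780.4), Rpl41 (751) and Rps29 (746). Rpl38 had the higher group mean of these first 2 genes in cortex Con (974 against 942 FPKM), cortex IR (975 against 918 FPKM) and hippocampus Con (754 against 738 FPKM), where their libraries overlapped, and Rplp1 in hippocampus IR (829.8 against 614 FPKM), without overlap. The heart and muscle paralog Rpl3l and the testis paralogs Rpl10l and Rpl39l stayed below 0.6 FPKM in every library and were the 3 members that did not pass the filter (at least 0.5 FPKM in at least 3 libraries of a comparison). The other 85 members were tested in each comparison, by limma on log2(FPKM + 1) over all genes that passed, so fold changes are on that scale and understate those of low genes.

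In the cortex, no member passed the test between IR and Con. Of the 85, 0 had an adjusted p under 0.05 in limma, against 0.725% of the 14065 genes tested. An unadjusted p under 0.05 was found in 2, both higher in IR, against 14.1% of all genes (8.16% higher). The median log2 fold change of the members was -0.014, and that of all genes was 0.0016. The 95% interval of the fold change lay within 1.5-fold in either direction for 81 of the 85 (95.3%), the same share as over all genes (95.3%). All 3 IR libraries lay above all 3 Con libraries for 3 members (11.2% of all genes) and below for 1, Rps15a (9.09% of all genes).

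The 2 members with an unadjusted p under 0.05 were Rps27l and Rps19bp1. Rps27l was listed at 25, 19.8 and 19.1 FPKM in cortex Con and at 28.6, 28.1 and 26.6 FPKM in cortex IR. Every IR library was above every Con library, and the log2 fold change of 0.38 ± 0.09 (SE) had an adjusted p = 0.116 in limma. Leaving out each library in turn gave log2 fold changes of 0.31 to 0.49 and adjusted p values of 0.014 to 0.368, the lowest without Con library 1. Rps19bp1 was at 17.5, 17.6 and 16.8 FPKM in Con and at 21, 19.4 and 20.5 FPKM in IR. Its groups did not overlap either, and its log2 fold change of 0.22 ± 0.06 (SE) had an adjusted p = 0.127 in limma.

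Rps27l did not show that order in the hippocampus. There it was at 36.6, 59.1 and 22.4 FPKM in Con and at 34.3, 32.7 and 29.4 FPKM in IR. The IR libraries lay inside the range of Con, whose libraries 2 and 3 were the highest and the lowest of the 6 (log2 fold change -0.18, adjusted p = 0.808 in limma). The difference of its irradiation effect between the regions did not pass the interaction test. Its parent Rps27 and the copy Rps27rt, summed, differed by 0.015 on the log2 scale in the cortex (adjusted p = 0.934 in limma).

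**Figure D3:**
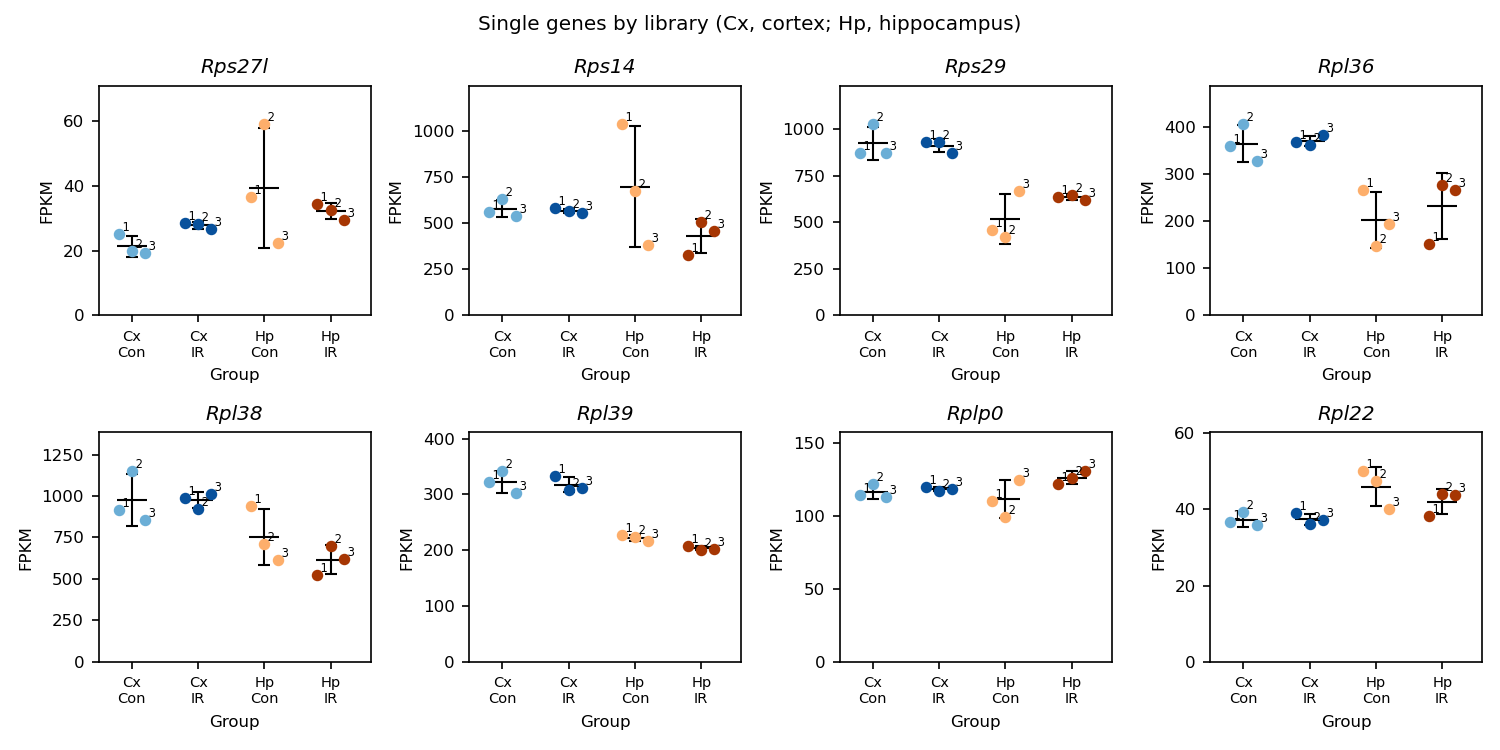
FPKM of 8 members in each library (points numbered by library), with bars for mean ± SD of 3 libraries and every vertical axis starting at 0; Cx is cortex and Hp is hippocampus. Rps27l is higher in cortex IR than in cortex Con without overlap, Rps14 spreads from 381.5 to 1035 FPKM in hippocampus Con, and Rpl39 is lower in the hippocampus without overlap.

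The 5S particle and reference genes gave small differences in the cortex. Rpl5, of the 5S particle, was at 103, 102 and 99 FPKM in Con and at 98, 101 and 100.5 FPKM in IR, and Rpl11, its partner, differed by -0.08 on the log2 scale (adjusted p = 0.676 in limma). Rps6, which encodes the target of the S6 kinases in the small subunit, had -0.04 (adjusted p = 0.846). Of the common reference genes for qRT-PCR, Rplp0 was at 114, 122 and 113 FPKM in Con and at 119, 117 and 118 FPKM in IR, within overlapping ranges. Rpl13a and Rps18 had log2 fold changes of -0.04 and -0.01, with intervals inside 1.5-fold. In the hippocampus the differences of these genes were larger and did not pass the test either, with log2 fold changes of -0.23 for Rpl5, -0.16 for Rpl11, -0.17 for Rps6, 0.18 for Rplp0, -0.22 for Rpl13a and -0.18 for Rps18 (adjusted p = 0.397 to 0.563 in limma), and the groups overlapped for each.

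1 library weighed on the direction in the cortex. Con library 2 was the highest of its group for 75 of the 84 subunit genes tested, with a median deviation of 0.12 on the log2 scale from its group's mean, against 0.02 over 2782 other genes of like level. Without it, 72 of the 85 members were higher in IR, the median log2 fold change was 0.042, and 10 members had an unadjusted p under 0.05 (15.1% of all genes in the same fit). Without Con library 3, 78 of the 85 were lower. The cause was not tested.

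In the hippocampus, no member passed the test between IR and Con either. Of the 85, 0 had an adjusted p under 0.05 in limma, against 0.0285% of the 14043 genes tested, and 4 had an unadjusted p under 0.05, against 13.9%. Of the 4, Rpl23 and Rpl27 were lower in IR (6.89% of all genes), and Rps28 and Rpsa, the laminin receptor gene, were higher (7.06%). The median log2 fold change of the members was -0.053, against -0.010 over all genes. The interval lay within 1.5-fold for 68 of the 85 (80%), against 90.1% of all genes. The groups did not overlap for 3 members higher (10.5% of all genes) and 3 lower (9.36%).

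Values of these 4, chosen after their values were seen, show how the Con libraries differed. Rpl27 was at 180, 166 and 126 FPKM in Con and at 123, 132 and 122 FPKM in IR. Rpl23 was at 185.5, 173 and 131 FPKM in Con and at 132, 129 and 134 FPKM in IR. Rps28 was at 246, 232 and 321 FPKM in Con and at 309, 316 and 346 FPKM in IR. In each of these 3, Con libraries 1 and 2 stood apart from IR and Con library 3 lay with it, so the groups overlapped. Rpsa was at 131, 121 and 139 FPKM in Con and at 137, 152 and 155 FPKM in IR, and here too Con library 3 lay inside the range of IR.

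Con library 3 decided the count. Without it, 8 members had an adjusted p under 0.05 in limma (6 lower and 2 higher in IR) and 35 an unadjusted one, while over all 13909 genes 6.33% and 26% did. The 8 were Rpl5, Rpl23, Rpl27, Rpl28, Rpl34 and Rps16, lower in IR, and Rps28 and Rps29, higher. Without Con library 2, IR library 2 or IR library 3, the members with an unadjusted p under 0.05 numbered 0, without Con library 1 there was 1, and without IR library 1 there were 7, against 8.35 to 9.79% of all genes over these 5 fits. The median log2 fold change ranged from -0.11 to 0.012 over these fits, so its direction was not fixed. With quantile normalization, which forces 1 distribution on all libraries, the median was 0.021 and 46 of the 85 members were higher in IR.

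The irradiation effect was not shown to differ between the regions. In the interaction fit over all 12 libraries, 0 of 85 members had an adjusted p under 0.05 in limma (0.0823% of 14577 genes), and 1, Rpl27, had an unadjusted p under 0.05 and was lower (10.3% of all genes in either direction, 5.58% lower). Rps27l had an interaction of -0.56 (adjusted p = 0.62). Without hippocampus Con library 3, 5 members had an adjusted p under 0.05, among them Rpl23, Rpl27, Rps16 and Rps29, against 3.3% of all genes.

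**Figure D4:**
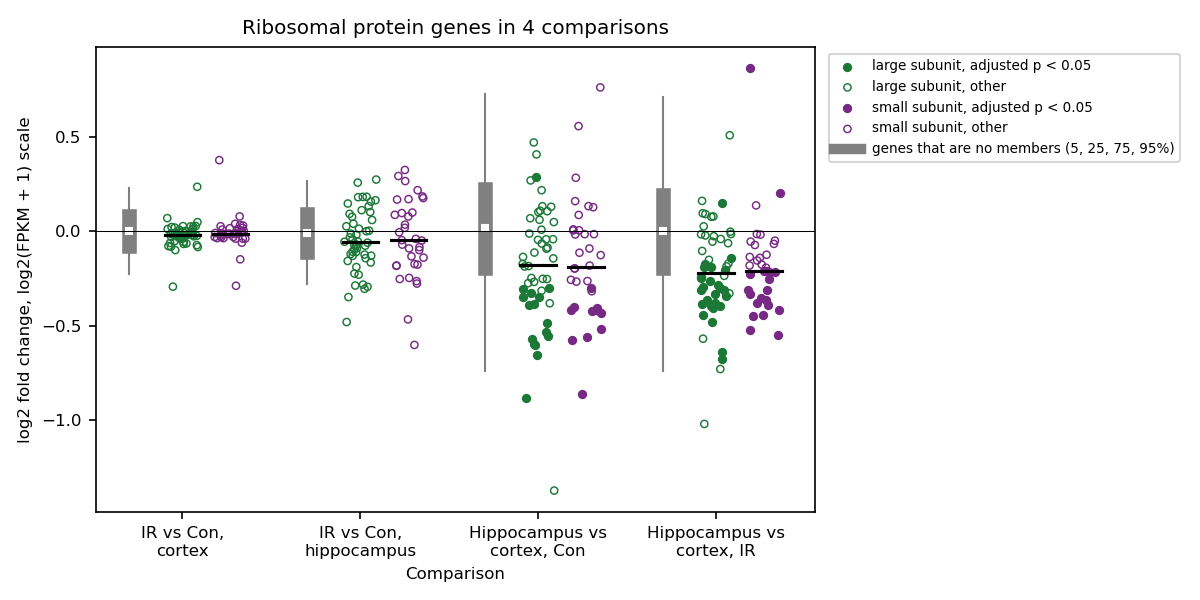
Log2 fold changes on the log2(FPKM + 1) scale of the subunit genes in 4 comparisons, large subunit in green and small subunit in purple, filled where the adjusted p was under 0.05, with black lines at the medians; the grey bars span the middle 50% and the lines the middle 90% of genes that are no members. The medians lie near 0 for IR against Con and at -0.18 to -0.22 for hippocampus against cortex.

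The regional difference was wider. In Con, 27 of the 85 members had an adjusted p under 0.05 in limma between hippocampus and cortex, against 36.3% of the 14169 genes tested. Of these, 26 were lower in the hippocampus (17.3% of all genes were called lower) and 1, Rpl22, was higher (19% of all genes). The median log2 fold change of the members was -0.18 and that of all genes was 0.018. In IR, 47 of the 85 members were called, against 46.7% of 14173 genes, 44 of them lower (23% of all genes) and 3 higher (23.7% of all genes), with a median of -0.21 against 0.00027. The share of members called in either direction was close to the background in Con, and the share called lower was above it in both. After the correction for length and GC content given with the transcript lengths, 20 were lower in Con (17.5% of all genes) and 27 in IR (22.2%). That correction took the median in Con to -0.018. With the replicate number as a block as well, the share lower in Con was close to the background, at 15 of 85 against 2357 of 14064 genes. In IR it was 26 of 85 against 3022 of 14070 genes.

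The 2 regional comparisons used different libraries. Of the 26 members lower in Con and the 44 lower in IR, 20 were called in both (76.9% and 45.5%), against 81.8% and 61.4% for all genes called lower. Of the 85, 70 had the same sign (82.4%), against 80.2% of all genes. The large and small subunit moved alike: medians of -0.18 and -0.19 in Con, and of -0.22 and -0.21 in IR. Called lower in Con were 15 of 50 large and 11 of 34 small subunit genes, and in IR 25 of 50 and 18 of 34. The labels name no processing run, but the column names of the cortex and hippocampus files end differently, and any difference in processing between them cannot be told apart from region. Without cortex Con library 1 or hippocampus Con library 2 the count in Con was 14 (25.8% and 26.6% of all genes), and without cortex Con library 2 it was 17 (28.6% of all genes), with a median of -0.11. Without hippocampus Con library 3 it was 36, of which 24 were lower and 12 higher in the hippocampus (39.6% of all genes in either direction), so the count of 1 higher rested on that library.

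Rpl39, which lines the exit tunnel, had the lowest adjusted p of the members in IR and, with Rpl29, in Con. It was at 323, 343 and 303 FPKM in cortex Con and at 227, 224 and 216 FPKM in hippocampus Con. In IR it was at 332, 308 and 312 FPKM in the cortex and at 208, 201 and 201 FPKM in the hippocampus. The regions did not overlap, with log2 fold changes of -0.53 ± 0.08 in Con and -0.64 ± 0.05 in IR (SE; adjusted p = 0.00082 and 5e-06 in limma).

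Rps29, a zinc-binding protein of the small subunit head, fell most among the small subunit genes called in Con. It was at 870.2, 1027 and 873 FPKM in cortex Con and at 461, 419.9 and 668 FPKM in hippocampus Con. In IR it was at 933, 931 and 871 FPKM in the cortex and at 635.5, 644 and 621 FPKM in the hippocampus. The regions stood apart in both, by log2 fold changes of -0.86 ± 0.16 and -0.52 ± 0.05 (SE; adjusted p = 0.0033 and 1.7e-05 in limma), and hippocampus Con library 3 was the nearest of its group to the IR libraries.

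Rpl36 and Rpl35a had the largest falls among the large subunit genes called in Con. Rpl36 was at 359, 405 and 327 FPKM in cortex Con and at 265.2, 146.5 and 193 FPKM in hippocampus Con. In hippocampus IR it was at 150.1, 276 and 266 FPKM, against 366, 359.9 and 382 FPKM in cortex IR. The regions did not overlap (log2 fold change -0.88 in Con, adjusted p = 0.008, and -0.73 in IR, adjusted p = 0.0527 in limma). Rpl35a was at 174 FPKM in hippocampus Con library 2 and at 182 FPKM in hippocampus IR library 1, the 2 lowest of the 12, and at 223 to 312 FPKM in the other hippocampus libraries.

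These 2 libraries also held the most choroid plexus RNA. The summed level of 4 choroid plexus markers was 1052 FPKM in hippocampus Con library 2 and 1637 FPKM in IR library 1, against 22.5 to 65.3 FPKM in the other 4 hippocampus libraries and 3.43 to 436 FPKM in the cortex. Ttr, the most abundant, was at 1005 and 1582 FPKM in them. The part of these cells in the result was not tested. The red blood cell markers summed to 14.2 to 38.7 FPKM in the hippocampus and 26.4 to 47.7 FPKM in the cortex. In hippocampus Con library 1, Alas2 of this list was the highest of the 12 libraries at 22.5 FPKM and the globin gene Hba-a1 the lowest at 9.83 FPKM.

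Rpl38, Rps21, Rpl37 and Rpl12 were among the other largest falls. Rpl38 was at 989.6, 922 and 1014 FPKM in cortex IR and at 523, 698 and 622.5 FPKM in hippocampus IR, without overlap (log2 fold change -0.67, adjusted p = 0.00046 in limma). In Con the regions overlapped, since hippocampus library 1 was at 942 FPKM (log2 fold change -0.38, adjusted p = 0.108). Rps21 fell by 0.55 on the log2 scale in IR (adjusted p = 0.00053) and had -0.26 in Con (adjusted p = 0.161). Rpl12 fell by 0.60 and 0.48, and Rpl37 by 0.60 and 0.34, in Con and IR, and all 4 passed the test in limma.

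A few members were higher in the hippocampus. Rpl22, which is dispensable for translation and has the paralog Rpl22l1, was at 36.6, 39.4 and 36 FPKM in cortex Con and at 50.2, 47.4 and 40.2 FPKM in hippocampus Con. The groups did not overlap (log2 fold change 0.29 ± 0.09, SE, adjusted p = 0.0369), but leaving out any library other than hippocampus Con library 3 ended the call (adjusted p = 0.0537 to 0.122 in limma), as did no filter (0.059) and no trend or robust prior (0.0526). In IR the log2 fold change was 0.16 (adjusted p = 0.0647 in limma). Rpl22l1 moved the other way, with -0.39 (adjusted p = 0.0307) in Con and -0.44 (adjusted p = 0.006) in IR. In IR, Rps4l, Rps27l and Rpl10a rose by log2 fold changes of 0.86, 0.20 and 0.15 (adjusted p = 0.0282, 0.0266 and 0.0349 in limma). Rps4l, an autosomal relative of the X-linked Rps4x, was at 15.2, 15.7 and 19.7 FPKM in cortex IR and at 21.5, 40.85 and 35.1 FPKM in hippocampus IR.

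The stalk and reference genes did not move as 1 group. Rplp1 had -0.34 in Con (adjusted p = 0.0362) and -0.15 in IR (adjusted p = 0.119), and Rplp2 had -0.27 (adjusted p = 0.0883) and -0.28 (adjusted p = 0.0029 in limma). Rplp0, their anchor, was at 110, 99.3 and 125 FPKM in hippocampus Con and at 122, 126 and 131 FPKM in hippocampus IR, with log2 fold changes from the cortex of -0.06 and 0.09 that did not pass the test. Rps18 and Rpl13a passed it in IR, at -0.37 and -0.30, and not in Con, at -0.20 and -0.11. Rps27a, made as a fusion with ubiquitin, fell by 0.40 in Con and 0.45 in IR, and both passed the test.

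Transcript length was weakly related to the regional difference. Each length is that of 1 annotated transcript per gene, which may not be the message present. Rps15a and Rps20 have lengths of 5179 and 3706 bases, with coding sequences of 390 and 357. The transcripts of the 88 members had a median length of 789.5 bases, against 2900 for all genes tested. Of the 85 tested, the 43 members of up to 775 bases had a median log2 fold change of -0.26 in Con, and the 42 longer ones had -0.09. In IR the medians were -0.25 and -0.19. Across the 85 genes, which share libraries and are no replicates, log2 length and the log2 fold change correlated at 0.17 in Con and 0.24 in IR. After each library was corrected for length and GC content together by loess, the median of the members was -0.018 in Con and -0.10 in IR. The members called were then 20 lower and 7 higher in Con, against 17.5% lower and 18.9% higher of all genes (36.4% in all). In IR they were 27 lower and 9 higher, against 22.2% and 23.7% (45.9% in all). Rpl39, Rps29 and Rpl12 kept an adjusted p under 0.05 in both, with Rpl39 at -0.40 and -0.48, Rps29 at -0.56 and -0.25, and Rpl12 at -0.55 and -0.42. Rpl36 had -0.49 in Con (adjusted p = 0.0445) and -0.41 in IR (adjusted p = 0.225 in limma). The calls lost included those of Rplp1 in Con (-0.050, adjusted p = 0.7), Rpl35a in Con (-0.48, adjusted p = 0.0519) and Rps18 in IR (-0.16, adjusted p = 0.0708 in limma). The calls gained included those of Rplp0 in IR (0.15, adjusted p = 0.0121), Rpl22 in IR (0.35, adjusted p = 0.002) and Rps4l in Con (0.74, adjusted p = 0.007 in limma). Length alone, apart from GC content, was not tested.

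Summing the near-identical copies changed the sign of several differences of Rpl30 and Rpl34, and in the regional comparison of IR both then passed the test. On the log2 scale, Rpl30 alone differed by 0.51 (adjusted p = 0.128) and with Gm12191 by -0.28 (adjusted p = 0.0113). Rpl34 alone had 0.03 (adjusted p = 0.869) and with Rpl34-ps1 -0.26 (adjusted p = 0.0408 in limma). Rpl26 with Gm15772 fell by 0.32 in Con and 0.23 in IR, where Rpl26 alone, at -1.37 and -1.02, had wide intervals. In Con, Rpl34 turned from 0.41 to -0.15 (adjusted p = 0.297 in limma). Rpl30 with Gm12191 was instead higher on average in the hippocampus in Con, at 442 ± 126 against 338 ± 28.1 FPKM in the cortex (SD, n = 3). Between IR and Con in the hippocampus, Rpl30 turned from 0.27 to -0.55 (unadjusted p = 0.0214, adjusted p = 0.311 in limma). Rpl30 and Gm12191 summed to 564, 448 and 313 FPKM in hippocampus Con and to 261, 321 and 299 FPKM in hippocampus IR, so Con library 3 lay inside the range of IR. These sums were chosen after the values were seen.

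**Figure D5:**
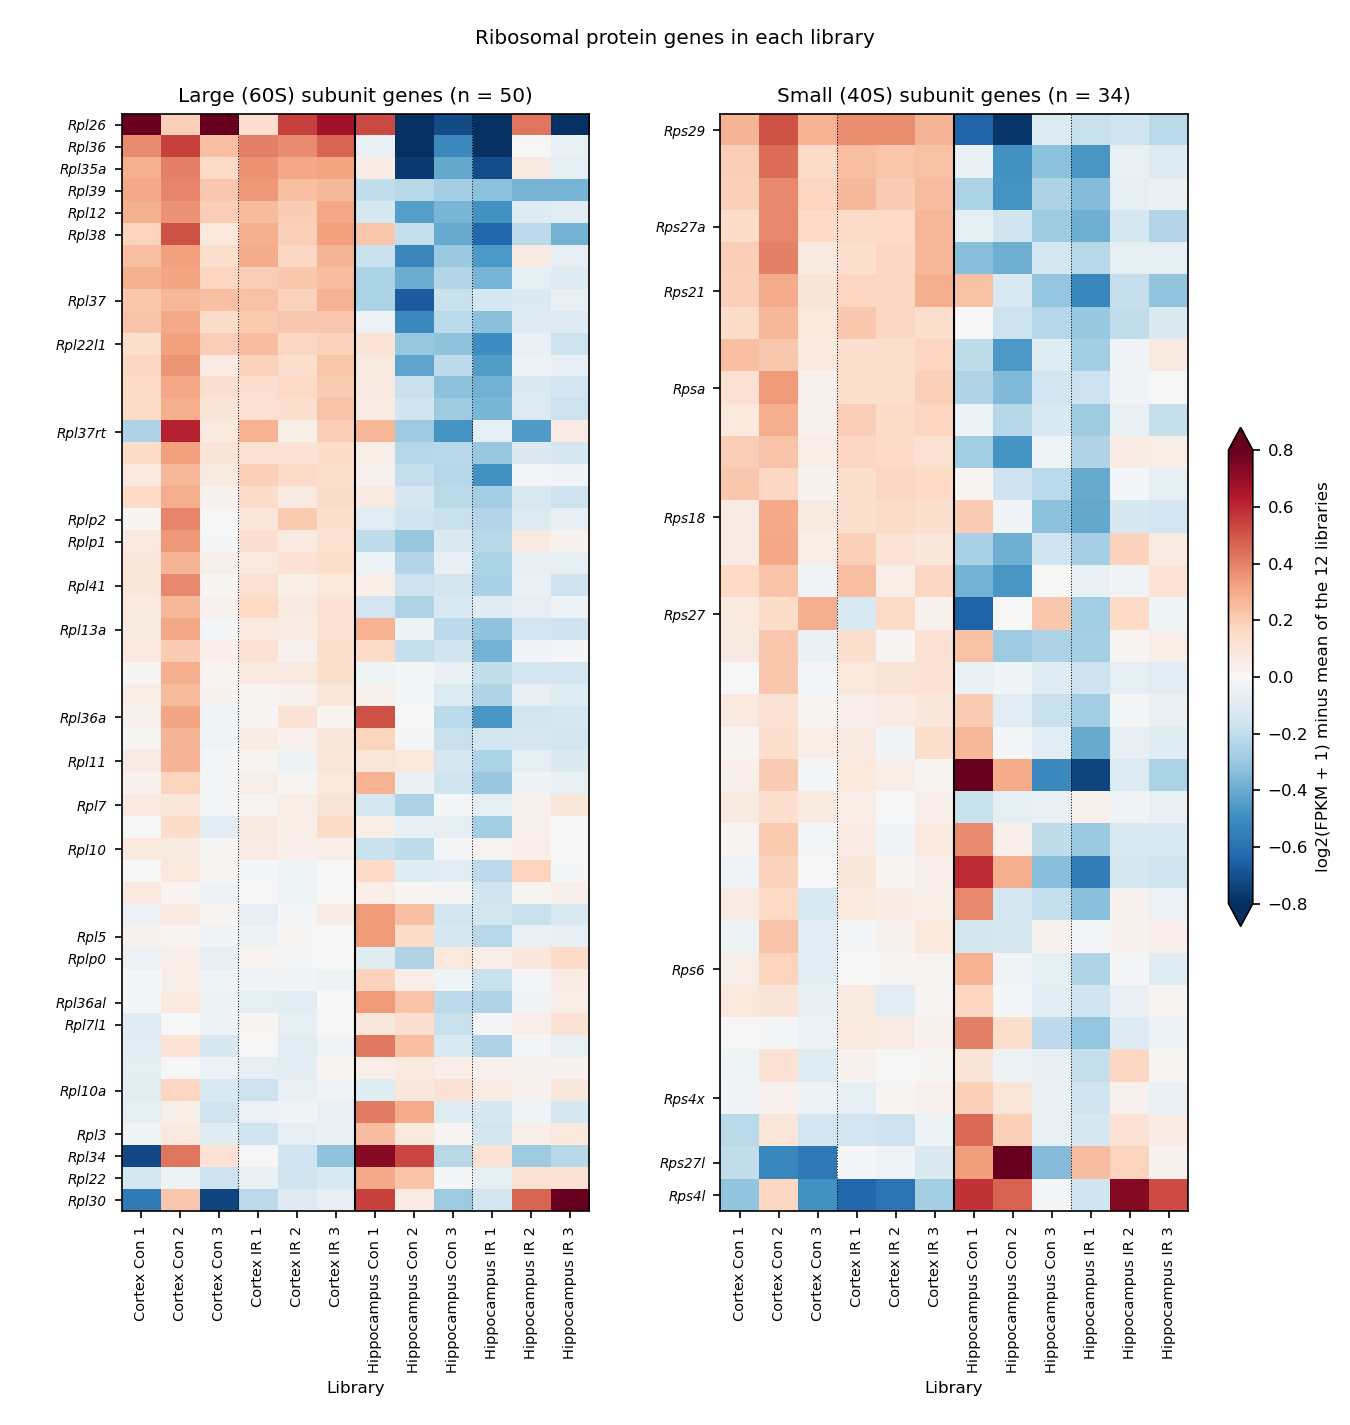
Log2(FPKM + 1) of each tested subunit gene minus its mean over the 12 libraries, large subunit left and small subunit right, with genes ordered by hippocampus minus cortex (genes picked by the naming rule are labelled) and libraries in columns; colours end at 0.8 in either direction. Most genes are above their mean in the cortex, cortex Con library 2 is the reddest cortex column, and hippocampus Con library 1 and IR library 1 differ most among the hippocampus columns.

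The spread between libraries was wider for the members than for other genes in 3 of the 4 groups. The median SD of log2(FPKM + 1) over the 85 members was 0.12 in cortex Con, 0.04 in cortex IR, 0.18 in hippocampus Con and 0.13 in hippocampus IR. Over 2782 genes of like level (27.4 to 439 FPKM) it was 0.08, 0.05, 0.11 and 0.07. Members of a library deviated together: in hippocampus Con library 1, 73 of the 85 were above their group's mean, and in hippocampus IR library 1, 76 were below. Among the 84 subunit genes, hippocampus Con library 1 was the highest of its group for 60 and hippocampus IR library 1 the lowest for 71.

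Rps14, chosen after its values were seen, spread most among the members above 500 FPKM. It was at 1035, 670.5 and 381.5 FPKM in hippocampus Con and at 327, 506 and 458 FPKM in hippocampus IR. In the cortex it was at 561, 628 and 539 FPKM in Con and at 578, 563 and 554 FPKM in IR, so the hippocampus libraries lay on both sides of the cortex. The highest mean SD within groups belonged to Rpl26 (0.70), Rpl30 (0.37) and Rpl34 (0.37), which each have a more abundant copy, whereas Rps27, which has one too, had 0.23, below Rps4l, Rps14 and others.

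Genes that work with the ribosomal proteins gave 0 calls by adjusted p in limma in either irradiation comparison and in the interaction, in which 0.725%, 0.0285% and 0.0823% of all genes were called. With an unadjusted p under 0.05 the largest list, the mitochondrial ribosomal protein genes, had 9 of 77 in the cortex, 10 in the hippocampus and 8 in the interaction. For that list this is near the 14.1%, 13.9% and 10.3% of all genes. In the same order, ribosome biogenesis genes had 1, 4 and 5 of 26, the last a larger share than that of all genes. Genes with TOP messages outside the ribosome had 1, 2 and 1 of 13, subunit genes outside the symbol rule 0, 1 and 0 of 3. The pseudogene rows had 1 of 7 in each. Of the subunit genes outside the symbol rule, Fau fell by 0.37 on the log2 scale in the hippocampus in IR (adjusted p = 0.00018 in limma), and Gnb2l1 did not pass the test in either regional comparison. Over all genes, 19% were called higher and 17.3% lower in the hippocampus in Con, and 23.7% and 23% in IR, and the counts of the lists stand beside these shares. Of 13 genes with TOP messages outside the ribosome (translation factors, and Npm1, Tpt1 and Naca, which are none), 5 were higher and 1 lower in Con, and 5 higher and 2 lower in IR. The nucleolar Npm1 was among the 5 in both, and Tpt1 among the 2. Eef1a1, the main elongation factor, was at 853 to 899.6 FPKM in cortex Con and at 1208 to 1261 FPKM in hippocampus Con. Of 26 ribosome biogenesis genes, 6 were higher and 0 lower in Con, and 4 higher and 3 lower in IR. Of 77 mitochondrial ribosomal protein genes, 5 were higher and 11 lower in Con and 4 higher and 16 lower in IR, with medians of -0.06 and -0.09. Of 7 pseudogene rows, 1 was lower in Con and 0 were called in IR.

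Marker levels differed between the regions and between Con and IR as well. The 4 neuron markers summed to 1858 to 2197 FPKM in the cortex and 1666 to 1833 FPKM in the hippocampus, and Snap25 alone of the 4 did not overlap. The 4 astrocyte markers summed to 189 to 232 and 239 to 271 FPKM, with Aqp4, Slc1a3 and Gja1 higher in the hippocampus without overlap and Aldh1l1 lower, at 12.7 to 15.6 FPKM against 21.3 to 22.5 FPKM. Between Con and IR, the astrocyte sums were 267 to 271 against 239 to 244 FPKM in the hippocampus and overlapped in the cortex. The 4 endothelial markers summed to 57.1 to 70.8 FPKM in cortex Con against 76.8 to 87 FPKM in cortex IR, and to 50.8 to 58.5 against 65.3 to 67.9 FPKM in the hippocampus, where Cldn5 alone of the 4 did not overlap. The 4 oligodendrocyte markers summed to 929 to 1150 FPKM in cortex Con against 1171 to 1417 FPKM in cortex IR, with Mbp and Mobp without overlap, and overlapped in the hippocampus. The 4 microglia markers summed to 53.2 to 59 FPKM in cortex Con against 35 to 51.7 FPKM in cortex IR, and to 57 to 61.5 against 40.1 to 42.5 FPKM in the hippocampus. Csf1r and Cx3cr1 did not overlap in either region, and P2ry12 and Tmem119 overlapped in the cortex. Their part in the values of the members was not tested.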

How the data were processed

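RNA from 12 libraries (3 Con and 3 IR per tissue) was analysed from the FPKM values that the authors deposited. Per the methods, the authors trimmed reads with FASTX_Trimmer and BBMap, aligned them with TopHat and estimated FPKM with Cufflinks, with a geometric normalization in edgeR. The submitters' processing notes name TopHat and mm10. The labels name Trizol and total RNA, and the methods an RNeasy kit and poly(A) selection. A geometric scaling is set by all genes, and FPKM are shares, so a change in abundant genes can shift the others. No counts were analysed, which leaves the number of reads unknown, and no counting interval is given. Steps between low values put relative depth within a tissue at 1 to 1.12.

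Groups came from the labels. A gene was tested if 3 or more libraries of the comparison (6 libraries, or 12 in the interaction) listed it at 0.5 FPKM or more. Tests were made on log2(FPKM + 1) with limma 3.58.1 (trend, robust prior) in R 4.3.3, two-sided, with Benjamini-Hochberg adjustment over all tested genes and a threshold of 0.05. Symbols were matched to GENCODE M21 (98.4%), which gave length, GC content and sequences. The fit was also run on simulated data in which each gene was drawn independently and 200 genes changed by 1 on the log2 scale. It recovered 94 to 97% of them, and 3.52 to 7.18% of the calls were false. Members of a library deviated together in the data, which the simulation did not include. Figures used matplotlib 3.10.9.

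The members follow a rule on symbols. That rule and the gene lists were chosen with earlier results of these data known. Genes named are those of fixed roles (stalk, 5S particle, reference genes, paralogs), the 5 largest rises and falls called per comparison, those with the highest level or spread, and others said to be chosen after their values were seen. Alternatives were no filter, a filter at 1 FPKM in all libraries, a smaller pseudocount (0.1), quantile normalization, median ratio scaling without the members, no trend or robust prior, a loess correction for length and GC content (span 0.3), a replicate block with and without that correction, 1 fit over all 12 libraries, and leaving out each library. Adding near-identical copies to their parent was chosen after seeing the data.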

Additional observations from a re-analysis of the deposited data

How the results depend on the processing

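Of 302 recomputed counts, medians, sums and ratios, 259 kept their value within the limits set, 1.5 times for a count and 1 SD between libraries for a median, sum or ratio, and 43 moved. No member had an adjusted p under 0.05 between IR and Con in any of the alternatives that kept all libraries. In the cortex, 4 members had an unadjusted p under 0.05 after the length and GC correction and 0 did in a single fit of all 12 libraries, against 2. In the hippocampus such members numbered 2 without a filter, 8 with quantile normalization, 0 without trend and robust prior, 7 after the length and GC correction and 18 in a single fit, against 4. In the interaction they numbered 0 without a filter, 7 with quantile normalization, 0 without trend and robust prior, 5 after the correction and 2 with copies added to their parent, against 1. Over all genes the share with an unadjusted p under 0.05 was 11.8 to 15.7% in the cortex, 10.1 to 19.2% in the hippocampus (19.2% in the single fit) and 8.96 to 11.1% in the interaction under these alternatives. The correction moved the median regional log2 fold change to -0.018 in Con and -0.10 in IR. Among values past the threshold in either fit, the sign turned for Rpl30 (-0.28) and Rpl34 (-0.26) in the regional comparison of IR with copies added. Beyond the effect of its own construction (a correction, other genes or rows), the cause of a move was not tested.

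Libraries with the same replicate number were no more alike than others. Their deviations from the group means correlated at -0.36 to 0.15 over 14577 genes, and those of libraries with different numbers at -0.26 to 0.34. Between the regions within a treatment, where 1 mouse could give both libraries, the same numbers correlated at -0.13 to 0.15. With 3 libraries per group this check cannot exclude a pairing. With the number as a block, 2 members had an unadjusted p under 0.05 in the interaction (10.3% of all genes). The regional calls were then 25 in Con and 48 in IR, against 35.1% and 45.2% of all genes. With the block and the length and GC correction, 7 members had an unadjusted p under 0.05 in the hippocampus and 4 in the interaction (10.3% and 11.1% of all genes). The regional calls were 19 in Con, 15 of them lower, and 38 in IR, 26 of them lower. Of all genes, 34.4% and 44.5% were called in these fits. The regional medians were -0.018 in Con and -0.10 in IR, and Rpl36al turned to 0.18 in the regional comparison of IR.

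Leaving out each library gave 0 to 1 members with an adjusted p under 0.05 in the cortex, 0 to 8 in the hippocampus, 0 to 5 in the interaction, 14 to 36 between regions in Con and 32 to 54 in IR. With an unadjusted p under 0.05 there were 2 to 10, 0 to 35, 0 to 25, 23 to 44 and 42 to 59 in the same order. The shares of all genes moved too, from 0.114 to 0.559%, 0 to 6.33%, 0 to 3.3%, 25.8 to 39.6% and 39.5 to 45.1% by adjusted p, and from 8.69 to 15.1%, 8.35 to 26%, 7.39 to 19.8%, 38.4 to 48.9% and 48.3 to 52.1% by unadjusted p. The median log2 fold changes were -0.053 to 0.042, -0.11 to 0.012, -0.11 to 0.036, -0.21 to -0.11 and -0.24 to -0.15. The IR over Con ratio of large to small subunit sums was 0.982 to 0.994 in the cortex and 0.999 to 1.02 in the hippocampus. With 3 libraries per group and no read counts, changes under 1.5-fold in genes of wide spread could not be resolved.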
